A study of Mus musculus with 4 samples.

Results

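The cells described here are alveolar macrophages with transcripts of the cell division genes Mki67 and Top2a, 194 cells of the 27544 kept from the lungs of 4 groups of mice. They were chosen on their measured counts. A barcode was a member if it had at least 1 UMI of each of at least 3 of the 6 genes Marco, Car4, Krt79, Pparg, Atp6v0d2 and Ear1, at least 1 UMI each of Mki67 and Top2a, and 0 UMIs of Cd3e, the T cell receptor partner, and of Cd79a, the B cell receptor partner. A UMI is a molecular tag that counts 1 captured transcript. Under DPBS there were 82 members from WT and 57 from KO mice, and under papain 33 from WT and 22 from KO. Where 4 values follow each other they stand for the libraries in this order. The genes of the rule carry no test here, and a difference between dividing and non-dividing cells was made by the choice of cells.

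All mice were male C57BL/6 animals 5 to 10 weeks old with floxed Ift20 alleles (Ift20 f/f). KO mice also carried CD4 cre and WT mice did not. Papain groups had 25 µg of papain, a cysteine protease used as an inhaled allergen, given into the nose on 3 consecutive days and again on day 14, and DPBS groups had buffer. Lungs were taken on day 15 and living CD45.2+ cells, those negative for the dye 7-AAD, were sorted and sequenced on the 3' Chromium platform. The CD4 promoter drives Cre in developing T cells, so the macrophages of KO mice are expected to keep Ift20, and KO here means a mouse with altered T cells. Each group was 1 library, the number of mice behind it was not given in the sources used here, so how far mice of 1 group vary is unknown. No test was therefore made, and every interval is a 95% interval for counting error only.

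Alveolar macrophages are the resident phagocytes of the airspaces. They clear surfactant and inhaled particles, and they depend on the cytokine GM-CSF and on the nuclear receptor PPARγ. They are known to be seeded around birth and to keep their numbers by dividing in place, with little input from blood monocytes when the lung is at rest. In a dividing cell the licensing and copying of DNA in S phase is followed by chromosome condensation, spindle assembly and separation in mitosis, and the genes for these steps are switched on in waves, the earlier one by E2F factors and the later one by the MuvB, B-Myb and FoxM1 complexes.

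The libraries held 53854420 to 75675956 UMIs. Of 28805 deposited barcodes, 163 had 200 genes or fewer and 1098 more had 15% or more mitochondrial UMIs. Between libraries 65 barcode sequences were shared, 1 of them a member. Ift20 (chr11:78536361-78541737 on mm10, forward strand), which encodes the intraflagellar transport protein targeted in KO mice, was counted in 126 members. Its level was 42.7 CPM (UMIs of the gene per 1000000 UMIs of the class, 95% Poisson interval 34.7 to 52.1) in WT and 37.99 (29.3 to 48.4) in KO under DPBS, and 43.2 (30.4 to 59.6) in WT and 55.1 (37.7 to 77.7) in KO under papain, so the 4 intervals overlapped. In dividing T cells of the same libraries it was 67.4 and 63.5 CPM in the WT groups and 20.3 and 15.2 in the KO groups. The counts do not separate the deleted exons 2 and 3 from the rest of the transcript.

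As a class the members held further alveolar macrophage genes besides those of the rule. Of 22 identity genes outside the rule, every one was over 2-fold higher than in dividing T cells of the same library in all 4 libraries (median log2 ratio 6.06). The dividing T cells, and the B cells below, were held to fewer than 3 of the 6 macrophage genes of the rule. These contrasts thus follow from how both sides were chosen and are a description. Siglecf, which encodes a sialic acid receptor, was part of neither the rule nor the sort. It stood at 178, 138, 117 and 122 CPM in the DPBS (WT, KO) and papain (WT, KO) libraries. Non-dividing alveolar macrophages held 185, 164, 134 and 143 CPM of it and dividing T cells at most 1.68. Mrc1, the mannose receptor CD206, stood at 617, 663, 659 and 650 CPM, and Lyz2, lysozyme, at 14890, 14660, 11100 and 13630. With every cell thinned to 5000 UMIs, which left out no member but 1 to 51 non-dividing macrophages and 962 to 1776 B cells of a library, Siglecf was seen in 54.1% of members, 51.5% of non-dividing alveolar macrophages and 0.567% of B cells, and Plet1, a surface protein of these macrophages, in 96.4%, 98.6% and 2.59%. Without thinning the Siglecf shares were 92.8%, 82.4% and 0.572%. Chil3 and Lyz2 were seen in 30.1% and 48.7% of thinned B cells, so a UMI of these 2 abundant genes alone does not mark a macrophage.

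The label did not hold for 2 members. The 22 identity genes took 5.09, 5.43, 6.3 and 5.16% of the UMIs of the median member of each library, against 0.141 to 0.151% in the median dividing T cell. In Papain WT the lowest member was at 0.183% and the next at 2.56%, and in Papain KO the lowest was at 0.132% and the next at 3.83%. The low Papain WT cell had 66512 UMIs, the most of any member, with 46 of Gata3, 47 of Il13, 151 of Areg and 87 of S100a4, but 3 of Lyz2 and 0 of Mrc1. The low Papain KO cell had 28046 UMIs, with 72 of Il5, 65 of Ccl1, 382 of Areg and 33 of Gata3, and 0 of Lyz2 and of Mrc1. Both had exactly 3 of the 6 macrophage genes of the rule, and they are called here the 2 cells led by Gata3 and Areg.

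Another 4 members had 20 or more UMIs of a marker list of another cell type. A second Papain WT cell had 188 UMIs of Gzma, a granzyme of cytotoxic cells, and 45 of Nkg7, with 140 of Lyz2 and 11 of Mrc1. A DPBS WT cell had 50 of Gzma, another had 29 UMIs of the monocyte list, and a DPBS KO cell had 115 of S100a8 and 96 of S100a9, the calprotectin genes of neutrophils. Together these were 6 of 194 members (3.09%), against 40 of 2900 non-dividing alveolar macrophages (1.38%). Ratios between libraries of named genes that rest on them are given with and without them, or with the UMIs left. Levels and list sums include them. The Papain WT cell led by Gata3 and Areg held 66512 of the 856140 UMIs of the members of that library, so it enters every Papain WT level. The median member had 0 UMIs of the T cell list in each library, and the eosinophil and mast cell list without Siglecf and the erythroid list were at 0 in every member.

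The rule let in cells with few counts of its genes. Mki67, which encodes the Ki-67 protein that coats mitotic chromosomes, had a median of 11 UMIs in a member and at most 77, and Top2a, the topoisomerase that untangles sister DNA, a median of 4 and at most 68. Exactly 1 UMI of both genes was the basis for 24 members. At the other edge of the rule, 7 members had just 3 of the 6 macrophage genes, and 22, 55 and 110 had 4, 5 and 6. Just outside it were 4 cells with 2 of the 6 genes, 330 gated macrophages with Mki67 but no Top2a and 172 with Top2a but no Mki67. The condition on Cd3e left out 29 cells and that on Cd79a left out 45. Members were the deeper cells, with a median of 27777 UMIs and 5406.5 genes against 18151.5 and 4275.5 in the 2900 non-dividing alveolar macrophages, those with 0 UMIs of both genes. The part of depth in their choice was not tested beyond the thinning below.

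Dividing cells were 4.3 to 6.41% of the alveolar macrophages in every library. The share of the macrophages that passed the same gate was 6.41% (82 of 1279, exact Clopper-Pearson interval 5.13 to 7.9%) for WT and 5.14% (57 of 1109, 3.92 to 6.61%) for KO under DPBS, and 4.3% (33 of 767, 2.98 to 5.99%) for WT and 4.99% (22 of 441, 3.15 to 7.46%) for KO under papain. All 4 intervals overlapped. The log2 ratio of Papain WT to DPBS WT was -0.57 (-1.14 to -0.01) and that of Papain KO to DPBS KO -0.04 (-0.73 to 0.65). Thinning to 5000 UMIs took all kept cells with at least 3 of the 6 genes, also those with Cd3e or Cd79a UMIs. The gate was then applied to the thinned counts. The shares were 3.62, 2.85, 2.98 and 2.1% of the 1352, 1088, 738 and 476 cells that passed. Left out were 15, 54, 51 and 1 gated cells with fewer UMIs. Cells that lost their Cd3e or Cd79a UMIs in thinning could enter, so these are not shares of the same cells. The log2 ratio of papain to DPBS was then -0.28 (-0.996 to 0.43) in WT and -0.44 (-1.46 to 0.58) in KO, so the ratio further from 0 was that of WT before thinning and that of KO after it.

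As a share of all cells kept, members were scarcer after papain in both genotypes. They were 1.01% (0.802 to 1.25%) for WT and 0.999% (0.758 to 1.29%) for KO under DPBS, and 0.413% (0.284 to 0.579%) for WT and 0.386% (0.242 to 0.584%) for KO under papain. Papain over DPBS gave log2 ratios of -1.29 (-1.87 to -0.70) for WT and -1.37 (-2.08 to -0.66) for KO, and these 2 comparisons share no library. Gated alveolar macrophages as a whole went from 15.7 to 9.59% of kept cells in WT and from 19.4 to 7.73% in KO, so the smaller share of members came with a smaller share of all alveolar macrophages. The sort on CD45.2 and the number of other leukocytes set such shares as well, and their part was not tested. KO against WT, which reuses the same libraries, gave log2 ratios of -0.01 (-0.50 to 0.47) under DPBS and -0.10 (-0.87 to 0.68) under papain.

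Mki67 and Top2a together were rare in neutrophils and B cells, which seldom divide in the lung. They were found together in 0 of 189 and 0 of 147 neutrophils under DPBS, which allows up to 1.93 and 2.48%, and in 0.446 and 0.331% under papain. In B cells the share was 0.19 to 0.96% of a library, and both cell types had medians of 3581.5 to 4903 UMIs per cell. Among T cells the shares were 2.63, 1.84, 3.78 and 2.41%, with a log2 ratio of papain to DPBS of 0.52 (0.07 to 0.97) for WT and 0.39 (-0.27 to 1.06) for KO. Neutrophils and B cells were shallower than the members.

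**Figure D1:**
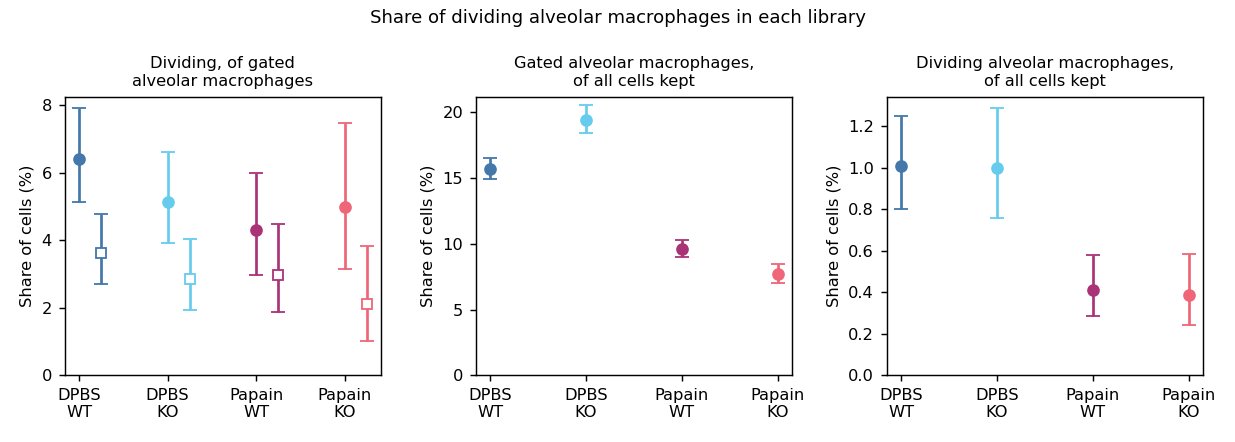
Shares of cells in percent (vertical axes, from 0) in each of the 4 libraries, with members of gated alveolar macrophages (left), gated alveolar macrophages of all kept cells (middle) and members of all kept cells (right), where points are libraries, bars are exact 95% intervals and open squares are shares after thinning to 5000 UMIs. Of kept cells, members were 0.386 to 1.01%, with both papain libraries below both DPBS libraries.

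Most replication and mitosis genes compared were higher in the members than in non-dividing macrophages. Genes were compared as the ratio of CPM from summed UMIs in the members to that in non-dividing alveolar macrophages of the same library, and were counted where past 2-fold in the same direction in all 4 libraries. Of 11154 genes with at least 50 UMIs, 489 were higher (4.38% of genes compared) and 2 were lower (0.0179%). The cells were split on Mki67 and Top2a, so these counts describe the split. Of 112 genes compared in 6 cell cycle lists 94 were among the 489, and of 187 genes in the other lists 1 was. The median log2 ratio over all genes was 0.06. TMM scaling would lower the log2 ratios by 0.09 to 0.15. For 36 of the 489 genes the smallest of the 4 log2 ratios was over 6.

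**Figure D2:**
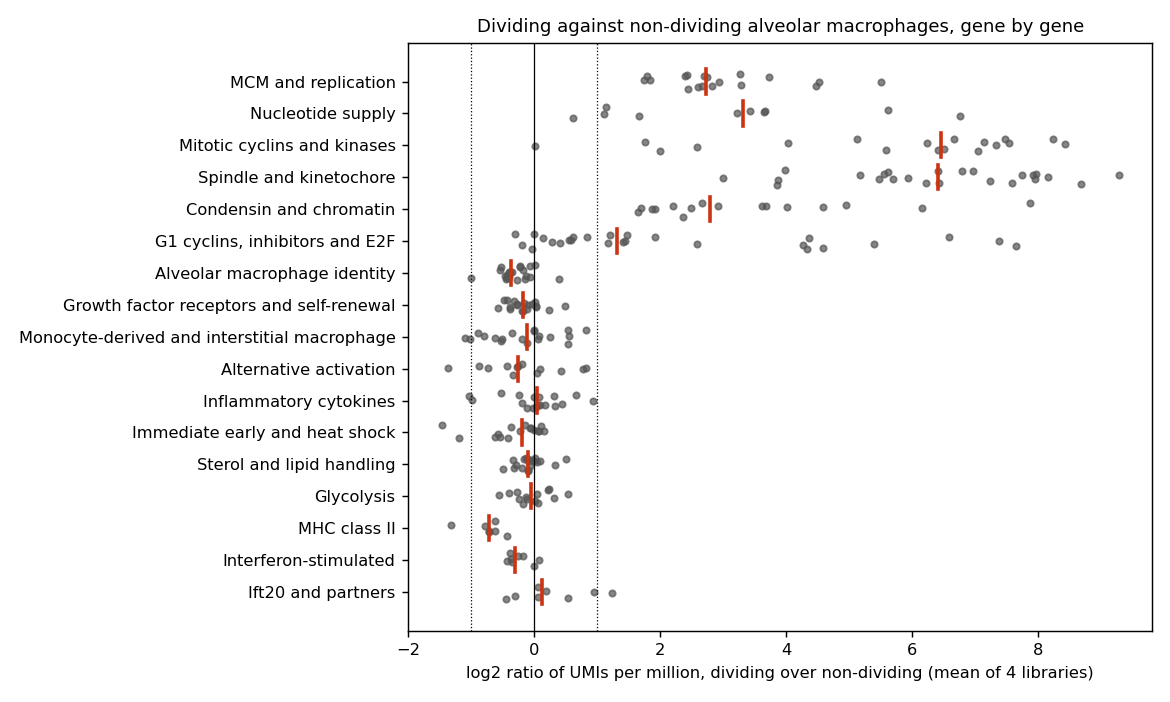
The log2 ratio of CPM in dividing to non-dividing alveolar macrophages (horizontal axis, mean of 4 libraries) for every compared gene of 17 gene lists (rows). Dots are genes, red bars are list medians and dotted lines mark 2-fold. The spindle list has a median of 6.41 and the alveolar macrophage identity list one of -0.37.

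The replication list was higher in full. All 18 of its genes passed 2-fold, with a median log2 ratio of 2.72. Summed over the list the level was 1906, 1884, 1497 and 1430 CPM in members of the DPBS (WT, KO) and papain (WT, KO) libraries, against 302, 333, 262 and 270 in non-dividing cells. Mcm5, a subunit of the ring helicase that is loaded on DNA before S phase, stood at 147, 152, 111 and 94.6 CPM against 15.6, 16.5, 10.4 and 10.6, and its log2 ratio was 3.17 to 3.42. Uhrf1, which carries DNA methylation over to the new strand, stood at 142, 144, 97.0 and 99.8 CPM against 1.45 to 3.79. Pcna, the sliding clamp of the DNA polymerases, had a log2 ratio of 1.57 to 1.92, and non-dividing cells held 71.3 to 84.8 CPM of it. Cdc45, which completes the active helicase, stood at 49.7, 48.5, 28.0 and 25.8 CPM against 1.30 to 2.19.

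Of 10 genes for nucleotide supply, 7 were higher, with a list median of 3.32. Rrm2, the regulated subunit of ribonucleotide reductase, stood at 268, 222, 175 and 145 CPM against 2.60, 1.52, 1.58 and 1.74. Tk1, thymidine kinase, stood at 220, 190, 151 and 131 CPM against 1.88 to 4.68. The genes Ctps, Paics and Gart, which make CTP and purines from new, did not pass 2-fold in all 4 libraries, with log2 ratios of 0.84 to 1.33, 0.92 to 1.40 and 0.29 to 0.84.

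The largest ratios lay in mitosis. All 24 spindle and kinetochore genes were higher (median 6.41), and their summed level was 3016, 2559, 2514 and 2306 CPM against 64.8 to 75.6 in non-dividing cells. Hmmr (chr11:40701395-40733422 on mm10, reverse strand), a spindle assembly protein, had the highest smallest ratio of all genes. It stood at 122, 95.9, 109 and 98.1 CPM in the members, against 0.163, 0.182, 0.0988 and 0.289 in non-dividing cells, and its log2 ratio was 9.55 (7.99 to 11.83) and 9.04 (7.47 to 11.33) in the DPBS libraries and 10.10 (7.59 to 15.42) and 8.41 (6.49 to 11.49) in the papain libraries. The wide intervals come from a handful of UMIs in the non-dividing cells. Hmmr was counted in 113 of the 194 members, so it was absent from the counts of many. Nuf2, a kinetochore subunit, Nusap1, a microtubule bundler, the motor proteins Kif20a, Kif11 and Kif4, and Cenpf, a centromere protein, were also among the 12 genes with the highest smallest ratio.

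Of 18 mitotic cyclins and kinases, 17 were higher (median 6.45). Birc5, survivin, which positions the Aurora B kinase on chromosomes, stood at 382, 328, 343 and 281 CPM against 1.34 to 2.17 and was seen in 147 members. Ccnb1, cyclin B1, stood at 109.5, 87.7, 91.1 and 74.0 CPM against 0.76 to 1.30. Bub1, a kinase of the spindle checkpoint, stood at 72.0, 68.4, 54.9 and 51.6 CPM against 0 to 0.289. The gene that did not pass was Pttg1, securin, the inhibitor of separase, with 59.8, 39.2, 46.7 and 60.2 CPM in members against 49.9, 51.9, 44.7 and 54.6, and it was counted in 134 members.

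All 16 condensin, histone and chromatin genes were higher (median 2.79). H2afz, a histone variant, was counted in every member, at 2223, 2070, 2345 and 2087 CPM against 633 to 701. Stmn1, which destabilises microtubules, stood at 1286, 1147, 1191 and 1063 CPM against 35.1 to 41.8, and Hmgb2, a DNA-bending protein, at 1239, 973, 1390 and 955 against 138 to 167. Ncapg, a condensin subunit, stood at 78.1, 71.3, 77.1 and 46.5 CPM against 0.145 to 0.850. Outside the lists, Pclaf, a partner of PCNA, stood at 370, 337, 320 and 222 CPM against 1.16 to 1.78, and Iqgap3, a scaffold protein of dividing cells, at 54.5, 47.4, 54.9 and 36.1 CPM.

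The regulators that decide entry into the cycle were split. Of 26 G1 cyclins, inhibitors, E2F factors and related regulators, 12 were higher, with a list median of 1.31. These were the S phase cyclins Ccne1 and Ccne2, the kinase Cdk4, the inhibitors Cdkn2a, Cdkn2c and Cdkn2d, the factors E2f2, E2f7 and E2f8, the pocket protein Rbl1, and Mybl2 and Foxm1, which drive the mitotic wave. Foxm1 stood at 81.1, 57.9, 51.4 and 46.5 CPM against at most 0.729, and E2f7, a repressor that limits E2F activity, at 35.3, 32.2, 24.5 and 15.5 CPM against at most 0.198. Ccnd2, a D-type cyclin that links growth factor signals to the cycle, was not higher, at 392, 425, 417 and 399 CPM against 511.5, 628, 414 and 479. E2f1 missed the count in Papain WT alone, where its log2 ratio was 0.66.

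Cdkn1a, the p21 inhibitor of cyclin-dependent kinases, was abundant in dividing and non-dividing macrophages alike. It stood at 806 (770 to 844), 708 (669 to 749), 931 (867 to 998) and 900 (825 to 981) CPM in members of the 4 libraries, against 704, 774, 870 and 684 in non-dividing cells. It was counted in 193 of 194 members. Dividing T cells held 40.7 to 96.8 CPM, and the log2 ratio of members to them was 3.27 to 4.12. Cdkn1b, the p27 inhibitor, was at 34.5 to 56.8 CPM in members and 28.8 to 39.9 in non-dividing cells.

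The promoters of the higher genes were read because these genes moved together. A RefSeq promoter on GRCm38.p6, from 250 bases before to 50 bases after the transcription start, was found for 394 of the 489 genes. Motifs were sought on both strands as the box CCAAT, bound by NF-Y, as the CHR element TTTGAA, read by the MuvB complexes, and the E2F words TTTCCCGC, TTTCGCGC, TTTGCCGC and TTTGGCGC. A gene was counted where any of its promoters held the word, while the share over all promoters counts each promoter singly. The third share below is therefore not a like measure to the first 2. CCAAT was in 60.2% of the 394 genes, in 42.5% of 8328 compared genes that were not higher and in 37.4% of all 32851 promoters. TTTGAA was in 33.5%, 13.7% and 17.9%, and an E2F word in 18%, 4.37% and 2.26%. The Sp1 word GGGCGG, sought for comparison, was in 74.6%, 69.0% and 35.7%.

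The lists differed in which words they held. Counted by gene as above, an E2F word was in 9 of 15 replication genes (60%) and in 1 of 21 spindle genes (4.76%). TTTGAA was in 4 of 15 (26.7%) and 18 of 21 (85.7%). Nucleotide supply, the other list of S phase, held an E2F word in 0 of 9 genes and TTTGAA in 0 of 9, and CCAAT in 5 of 9 (55.6%). Mitotic cyclins and kinases held CCAAT in 13 of 15 (86.7%). The G1 and E2F list held an E2F word in 6 of 19 (31.6%), and the alveolar macrophage identity list in 0 of 18. A match of letters is a description of the sequence and no binding was measured.

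For each cell cycle list 1 promoter is given, that of the gene with the highest smallest ratio among genes with 1 promoter. Genes on 1 chromosome were left out of this choice, so a gene with a higher ratio may have been passed over. Promoters run 5′ to 3′ on the strand of the gene, with the CCAAT box, the TTTGAA element and the E2F words in capitals. These are marked on whichever strand they lie, so a match on the other strand is shown as its reverse complement. The start is after base 250, and the 6 show where the words lie within this window.
Cdc45 (chr16:18811923-18812222, strand -): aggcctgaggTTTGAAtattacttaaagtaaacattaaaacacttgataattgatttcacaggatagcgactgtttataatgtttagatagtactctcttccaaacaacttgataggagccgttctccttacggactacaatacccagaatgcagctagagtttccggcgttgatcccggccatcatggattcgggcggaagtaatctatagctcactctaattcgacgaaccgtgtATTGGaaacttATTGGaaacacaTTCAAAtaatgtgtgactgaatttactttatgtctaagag
Rrm2 (chr12:24708004-24708303, strand +): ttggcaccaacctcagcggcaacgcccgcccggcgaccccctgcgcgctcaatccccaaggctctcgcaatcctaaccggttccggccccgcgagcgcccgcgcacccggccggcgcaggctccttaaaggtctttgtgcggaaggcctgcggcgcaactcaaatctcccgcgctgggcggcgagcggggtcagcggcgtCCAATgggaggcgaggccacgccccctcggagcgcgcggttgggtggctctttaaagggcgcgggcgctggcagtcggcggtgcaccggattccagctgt
Bub1 (chr2:127831810-127832109, strand -): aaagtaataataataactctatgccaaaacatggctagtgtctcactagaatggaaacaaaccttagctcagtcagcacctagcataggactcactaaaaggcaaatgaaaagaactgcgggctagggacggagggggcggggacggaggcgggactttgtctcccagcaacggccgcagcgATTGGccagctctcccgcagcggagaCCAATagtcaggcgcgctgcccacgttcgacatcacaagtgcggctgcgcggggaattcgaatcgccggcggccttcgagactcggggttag
Hmmr (chr11:40733388-40733687, strand -): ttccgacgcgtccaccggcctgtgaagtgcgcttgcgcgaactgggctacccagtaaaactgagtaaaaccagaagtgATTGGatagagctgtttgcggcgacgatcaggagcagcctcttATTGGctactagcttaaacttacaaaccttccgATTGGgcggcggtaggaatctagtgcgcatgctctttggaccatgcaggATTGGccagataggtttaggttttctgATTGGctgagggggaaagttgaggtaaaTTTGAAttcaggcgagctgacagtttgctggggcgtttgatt
Ncapg (chr5:45669675-45669974, strand +): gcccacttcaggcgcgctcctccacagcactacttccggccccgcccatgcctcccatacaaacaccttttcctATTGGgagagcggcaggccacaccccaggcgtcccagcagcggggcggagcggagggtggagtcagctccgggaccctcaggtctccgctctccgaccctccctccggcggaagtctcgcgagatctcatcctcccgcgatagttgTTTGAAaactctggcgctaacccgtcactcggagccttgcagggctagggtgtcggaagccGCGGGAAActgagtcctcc
E2f7 (chr10:110745189-110745488, strand +): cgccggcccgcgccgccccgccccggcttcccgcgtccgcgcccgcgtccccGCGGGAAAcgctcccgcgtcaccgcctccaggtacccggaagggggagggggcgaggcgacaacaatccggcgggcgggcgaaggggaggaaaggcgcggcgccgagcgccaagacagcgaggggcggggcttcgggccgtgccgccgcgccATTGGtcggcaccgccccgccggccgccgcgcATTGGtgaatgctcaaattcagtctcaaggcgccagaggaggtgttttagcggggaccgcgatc

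Hmmr holds 5 CCAAT boxes, of which the nearest begins 20 bases before the start and the next 47, and a TTTGAA just after the start. Bub1 has 2 CCAAT boxes that begin 68 and 42 bases before the start, and Rrm2 has 1 at 50 bases. Cdc45, of the replication list, has 2 CCAAT and 2 TTTGAA and no E2F word of this search. Ncapg has a TTTGAA 30 bases before the start with a CCAAT at 176 and an E2F word after the start. E2f7 has 2 CCAAT boxes and an E2F word at 198 bases before the start.

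Members differed in how many transcripts of replication and mitosis genes they held. Each was scored by its UMIs per 10000 of 28 replication and nucleotide genes and of 42 mitosis and spindle genes. The median member of the DPBS (WT, KO) and papain (WT, KO) libraries held 28.4, 32.6, 12 and 19.6 of the replication genes and 55.4, 36.2, 36.5 and 16.3 of the mitosis genes. The median non-dividing cell held 3.5 to 4.06 and 2.52 to 2.83, and the median dividing T cell 27.3 to 38.8 and 48.3 to 76.2. Members spanned 0.995 to 73.4 of replication genes and 0.482 to 198 of mitosis genes.

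Set against the 95th percentile of non-dividing cells of their own library, 116 members (59.8%) were above it for both gene groups, 46 (23.7%) for mitosis genes alone and 14 (7.22%) for replication genes alone. The other 18 (9.28%) were above neither, with 7.32, 5.26, 18.2 and 13.6% of members in the 4 libraries. Of the 24 members with a single UMI each of Mki67 and Top2a, 13 were among these 18, and such members were 7 of 82, 6 of 57, 4 of 33 and 7 of 22. The members above neither had a median of 19944.5 UMIs and those above both 31055.5, so depth went with the class. Among 502 gated macrophages with a UMI of only 1 of the 2 genes, 348 (69.3%) were above neither. More mitosis than replication UMIs were found in 48 of 82, 31 of 57, 22 of 33 and 11 of 22 members, shares of 58.5, 54.4, 66.7 and 50% with exact intervals that overlapped.

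**Figure D3:**
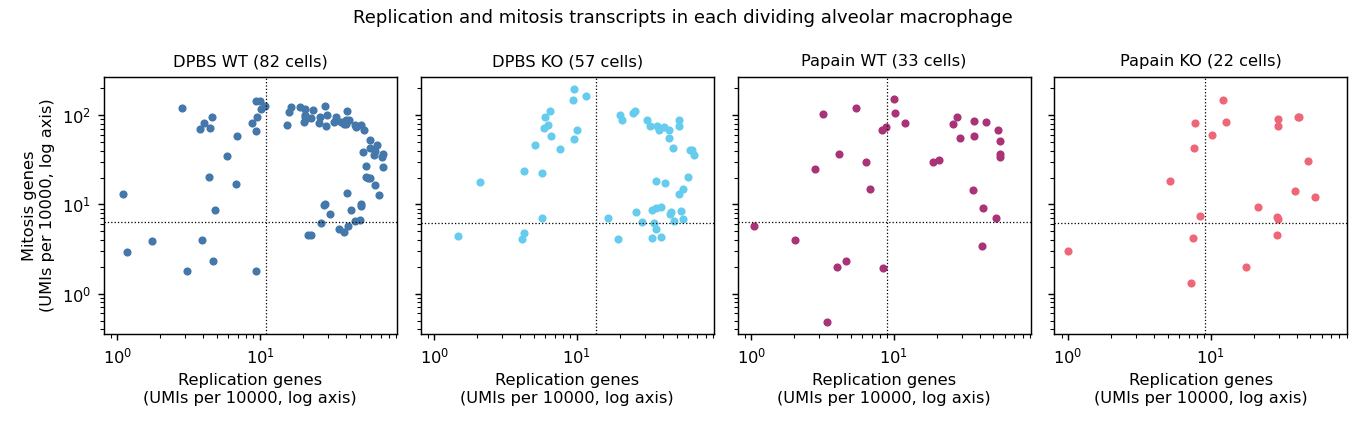
Each point is 1 member, by UMIs per 10000 of replication genes (horizontal, log axis) and of mitosis genes (vertical, log axis), in a panel for each library. Dotted lines are the 95th percentiles of non-dividing alveolar macrophages, and 116 of 194 members lie above both.

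Identity genes were mostly somewhat lower in the members, short of 2-fold. Of 22 identity genes, 20 had a mean log2 ratio under 0 and 0 passed 2-fold in either direction in all 4 libraries, with a list median log2 ratio of -0.37 against 0.06 over all genes. The list took 53570, 61590, 65270 and 51930 CPM in members and 66850, 65420, 83800 and 67290 in non-dividing cells. Below the 1st percentile of non-dividing cells of their library were 15 of 82, 3 of 57, 2 of 33 and 1 of 22 members. The gene furthest below was Ear2, an eosinophil-type ribonuclease of alveolar macrophages, at 1098, 1115, 961 and 1027 CPM against 1991, 2079, 2164 and 2171, with log2 ratios of -0.86, -0.90, -1.17 and -1.08. Ctsk, cathepsin K, was above the non-dividing level in 3 libraries, at 489, 560, 594.5 and 499 CPM against 314, 370, 615 and 384. The rule's own Pparg and Marco are not read here.

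Receptors and factors that support self-renewal behaved alike. Of 19 genes 0 passed 2-fold in all 4 libraries (list median -0.18). Csf2rb, the shared signalling chain of the GM-CSF receptor, stood at 437, 423, 381 and 403 CPM against 538.5, 604, 534 and 548. Csf1r, the M-CSF receptor, stood at 101, 115, 121.5 and 114 CPM against 138, 144, 144 and 166.5, and Cebpa, a myeloid factor, at 271, 254, 188 and 277 against 407, 419, 299.8 and 343. Klf2 and Klf4, linked to self-renewal, stood at 183 to 349 and 294 to 341 CPM, with log2 ratios of -0.19 to 0.31 and -0.47 to -0.06.

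**Figure D4:**
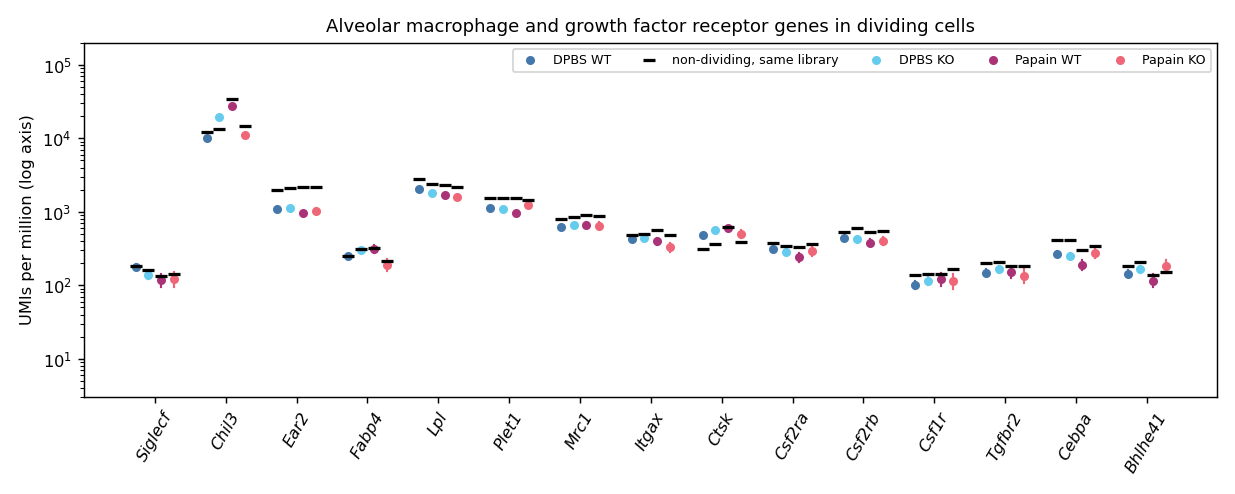
CPM (vertical, log axis) of alveolar macrophage and growth factor receptor genes in the members of each library. Coloured dots are libraries with 95% Poisson intervals and black dashes are non-dividing alveolar macrophages of the same library. For Siglecf, members hold 117 to 178 CPM and non-dividing cells 134 to 185, while for Ear2 all 4 dots lie below their dashes.

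Other programmes did not separate dividing from non-dividing cells by 2-fold in all 4 libraries. This held for 0 of 19 monocyte-derived and interstitial macrophage genes (median -0.11), 0 of 13 alternative activation genes (-0.25), 0 of 18 inflammatory genes (0.04), 0 of 16 immediate early and heat shock genes (-0.19), 0 of 19 sterol and lipid genes (-0.09), 0 of 14 glycolysis genes (-0.06), 0 of 7 MHC class II genes (-0.72) and 0 of 8 compared interferon-stimulated genes (-0.31). C1qa, Folr2, Mmp14 and F13a1, markers of interstitial and monocyte-derived macrophages, had 0 UMIs in all members. Other markers of these cells were counted. Ccr2 was seen in 20.6% of members and 8.55% of non-dividing cells, Itgam in 10.3 and 6.66%, and Cx3cr1 in 4.64 and 2.83%. C1qb was seen in 1.03 and 1.28% and C1qc in 0.515 and 0.379%. After thinning as above, Ccr2 was at 8.25 and 3.23%, Cx3cr1 at 1.55 and 1.33% and Itgam at 1.03 and 2.55%. C1qb was then at 0 and 0.467% and C1qc at 0 and 0.18%. Hspa1a, the inducible heat shock protein HSP70, was lower in members of each library, at 535, 255, 394 and 451 CPM against 1627, 620, 877 and 755. Cd63, a tetraspanin of late endosomes, was also on the lower side, at 97.7, 80.1, 193 and 134 against 166.5, 146, 377 and 205. Ccl3, a chemokine that draws monocytes, was on the higher side, at 307, 244, 321 and 315 CPM against 176, 171, 134 and 144, and passed 2-fold in the papain libraries.

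The gene from the other lists that did pass was Ift27, the small GTPase of the intraflagellar transport complex that contains Ift20. It stood at 41.4, 31.6, 35.0 and 34.4 CPM in members against 16.7, 14.8, 13.5 and 15.2, with log2 ratios of 1.31 (0.96 to 1.64), 1.10 (0.64 to 1.53), 1.37 (0.75 to 1.95) and 1.18 (0.41 to 1.88). Ift20 itself was on the lower side, with log2 ratios of -0.45, -0.65, -0.63 and -0.07. Across the 8 compared genes of that list the median was 0.12. The 2 genes lower in the members were Rilp, a late endosome and lysosome adaptor, at 0.872, 0.585, 1.17 and 1.72 CPM against 4.99, 4.62, 4.74 and 5.06, and Tcp11l2, at 7.41, 7.01, 9.34 and 13.8 CPM against 25.8, 29.8, 29.0 and 33.7.

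Against dividing T cells the cell cycle genes lay close and the lineage genes far apart. Of 9770 genes compared, 1433 were past 2-fold higher in the members in all 4 libraries (14.7%) and 681 lower (6.97%), where dividing T cells are those with Cd3e, Mki67 and Top2a. The median log2 ratio was -0.54 for the replication list, -0.41 for nucleotide supply, -0.32 for mitotic cyclins and kinases, -0.06 for the spindle and -0.35 for chromatin. Anln, anillin, which anchors the ring of cytokinesis, was the spindle gene past 2-fold in all 4 libraries, at 120, 82.4, 75.9 and 55.1 CPM against 27.7, 18.8, 22.5 and 17.7. Hmgb2, Hmgb3, H2afx and Lmnb1 were the 4 chromatin genes past 2-fold lower, with log2 ratios of -3.20 to -1.36. Both classes were chosen on Mki67 and Top2a, and on lineage genes, so the lineage differences were set by the choice.

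Papain against DPBS set few genes of the members past 2-fold, and many of the higher ones rested on single cells. In WT 44 of 6985 compared genes were past 2-fold higher (0.63%) and 126 lower (1.8%), and in KO 48 of 6081 were higher (0.789%) and 90 lower (1.48%). A single cell held more UMIs than all other members of its library together for 18 of the 44 and 9 of the 48 genes, and for 3 of the 126 and 4 of the 90 lower ones. Among genes not past 2-fold this was so for 0.147 and 0.168%. Of the genes past 2-fold, 129 of 170 in WT and 90 of 138 in KO had a ratio of the same sign in non-dividing macrophages, and 17 and 9 were past 2-fold there too. Of all 6985 and 6081 compared genes, non-dividing macrophages had 37 past 2-fold higher and 14 lower in WT, and 22 and 23 in KO. Their ratio was above 0 for 2932 and 2776 of these genes. How many of all compared genes had the same sign in both classes was not counted.

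Cell cycle genes were slightly lower after papain in both genotypes, short of 2-fold for nearly all. The list medians in WT and KO were -0.36 and -0.38 for replication, -0.33 and -0.35 for nucleotide supply, -0.30 and -0.22 for mitotic cyclins and kinases, -0.27 and -0.20 for the spindle and -0.15 and -0.22 for chromatin, beside -0.08 over all genes in WT and 0.001 in KO. Of these 5 lists 0 genes passed 2-fold in either genotype. Rrm2 had ratios of -0.61 (-0.88 to -0.35) for WT and -0.62 (-0.98 to -0.28) for KO. For Mcm5 it was -0.41 (-0.75 to -0.08) and -0.68 (-1.13 to -0.26). Of the G1 and E2F list 1 of 23 compared genes was past 2-fold lower in WT, Mybl2 (-1.05, and -0.89 without the 6 members with another cell type's markers), and 4 of 23 in KO, Mybl2, E2f7, E2f8 and the cyclin gene Ccne2, with Ccne2 at 47.5, 39.8, 28.03 and 12.05 CPM. Members above neither limit of the replication and mitosis scores were the larger share in the papain libraries, as given above, and their part was not tested. In non-dividing macrophages the medians in WT and KO were -0.14 and -0.41 for replication, -0.12 and -0.20 for nucleotide supply, 0.10 and 0.05 for mitotic cyclins and kinases, -0.06 and 0.03 for the spindle and -0.21 and 0.10 for chromatin. The median depth of members was also lower after papain, 24079 and 24013.5 UMIs against 28006 and 30025, and its part was not tested.

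In both genotypes together 2 of 6051 genes were past 2-fold higher after papain (0.0331%) and 5 lower (0.0826%). Of the higher genes, S100a4, a calcium-binding protein, rested on the 2 cells led by Gata3 and Areg. It stood at 120 CPM in Papain WT against 35.3 in DPBS WT, but 87 of its 103 UMIs came from 1 of these cells, and in Papain KO 52 of its 68 UMIs came from the other. Without the 6 members with another cell type's markers its log2 ratio went from 1.77 to -0.63 in WT and from 2.06 to 0.015 in KO. Slc29a3, a nucleoside transporter of lysosomes, was spread over 19 of 33 and 14 of 22 members after papain. It stood at 14.4, 19.3, 33.9 and 39.6 CPM in the 4 libraries, with both papain libraries above both DPBS libraries. Its ratio was 1.24 (0.46 to 1.999) for WT and 1.04 (0.20 to 1.85) for KO, against 0.42 and -0.14 in non-dividing cells.

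The 5 lower genes were counted in 33 to 42 of 82 members in DPBS WT and in 22 to 40 of 57 in DPBS KO. In Papain WT they were counted in 5 to 13 of 33 members and in Papain KO in 5 to 7 of 22. Pdk4, the kinase that shuts pyruvate out of the mitochondrial citrate cycle, stood at 60.2, 46.8, 18.7 and 10.3 CPM, with ratios of -1.69 (-2.53 to -0.94) for WT and -2.18 (-3.67 to -0.99) for KO. Atf5, a transcription factor of the stress response, stood at 62.8, 61.4, 18.7 and 22.4 CPM, with ratios of -1.75 (-2.59 to -1) and -1.46 (-2.41 to -0.62). In each of these genes both papain libraries lay below both DPBS libraries. Acot2, a mitochondrial acyl-CoA thioesterase, stood at 34.9, 31.6, 12.8 and 13.8 CPM, and Mybl2, the B-Myb factor of the mitotic wave, at 31.4, 31.0, 15.2 and 13.8. Gm10036, a predicted gene, stood at 21.8, 35.1, 7.01 and 13.8 CPM. Without the highest cell of each library the 5 ratios were -2.42 to -1.16 in WT and -2.42 to -1.37 in KO. Without the 6 members with another cell type's markers Mybl2 was at -0.89 in WT and so no longer past 2-fold there, and the other 4 genes were at -2.52 to -1.36 in WT and -2.14 to -1.16 in KO. In non-dividing macrophages Pdk4 had ratios of -0.28 and -1.001 and Atf5 of -0.29 and -0.68.

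After papain in WT, Ccl17, a chemokine for CCR4 that marks alternative activation, was the gene with the highest ratio. It stood at 117 CPM in Papain WT against 1.31 in DPBS WT (log2 ratio 6.48, 4.89 to 8.78), but the 100 UMIs came from 7 of 33 members, with 64 in a single cell. Without the highest cell of each library the ratio was 6.60. AA467197 stood at 82.9 against 2.62 CPM (4.99) in 11 of 33 members. In non-dividing macrophages the ratios of both genes were 6.83 and 5.70. In KO neither was higher after papain, with Ccl17 at 1.72 CPM in Papain KO and 16.4 in DPBS KO, and AA467197 at 8.60 and 9.35.

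Chil3, the chitinase-like protein Ym1, was in every member. It stood at 10160, 19240, 27660 and 11030 CPM in the 4 libraries, higher after papain in WT (1.45, 1.42 to 1.47) and lower in KO (-0.80, -0.84 to -0.77). In DPBS KO a single member held 7773 of the 32923 UMIs, and others held 2939 and 2470. Without the highest cell of each library the ratio was 1.34 in WT and -0.54 in KO. Non-dividing macrophages had 12300, 13330, 34580 and 14920 CPM, with ratios of 1.49 in WT and 0.16 in KO. Arg1, arginase 1, had 40.9 CPM in Papain WT and at most 6.88 elsewhere, in 9 members in all. Retnla, another alternative activation gene, was seen in 2 members.

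Few genes of the identity, growth factor, metabolic and stress lists were past 2-fold after papain. Of 22 identity genes Chil3 in WT was the one past 2-fold, with list medians of -0.17 in WT and -0.04 in KO, and of 15 compared growth factor receptor and self-renewal genes 0 passed (-0.07 and -0.02). Of 12 compared glycolysis genes 0 passed (-0.10 and 0.006). Among sterol and lipid genes Sqle, squalene epoxidase, was past 2-fold higher in WT, at 15.3 CPM in DPBS WT and 33.9 in Papain WT (1.15, and 0.97 without the highest cells), and Scd1, a fatty acid desaturase, past 2-fold lower in KO, at 31.6 and 6.88. Of 16 immediate early and heat shock genes Egr1, a growth factor response factor, passed in KO, at 119 CPM in DPBS KO and 317 in Papain KO, and stood at 252 and 131 in WT. The monocyte-derived and interstitial macrophage list had 2 of 9 compared genes past 2-fold higher in WT and 2 of 8 lower in KO. In WT these were Plac8, which went from 3.27 to 0.54 without the 6 members with another cell type's markers, and Mmp12, the macrophage elastase, which went from 3.12 to 3.24. Mmp12 stood at 5.23, 31.6, 45.6 and 6.88 CPM in the 4 libraries, in 4, 7, 3 and 4 members, and was lower after papain in KO (-2.20). Cx3cr1, the other lower gene in KO (-4.06), had 142 of its 147 DPBS KO UMIs in 1 member.

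Many of the genes furthest up after papain came from the members with another cell type's markers. In WT these were Igfbp4 (4.96), Tnfrsf4 (4.30), Gata3 (4.20), Gzma (3.26), Plac8 (3.27) and Nkg7 (2.39), and without the 6 members Papain WT and DPBS WT held 2 and 4, 1 and 6, 1 and 7, 2 and 3, 5 and 10, and 0 and 3 UMIs of them. In KO these were Il5 (at least 6.14), Ccl1 (at least 5.99), Areg (4.93) and Traf1 (4.24), and without the 6 members Papain KO and DPBS KO held 0 UMIs of Il5 and of Ccl1, 21 and 39 of Areg and 1 and 7 of Traf1. The NK and ILC list as a whole stood at 40.6, 4.68, 364 and 72.3 CPM in members against 6.99, 9.60, 8.50 and 2.60 in non-dividing cells. The T cell list stood at 17.9, 12.3, 51.4 and 32.7 CPM against 17.5, 15.6, 24.9 and 20.

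**Figure D5:**
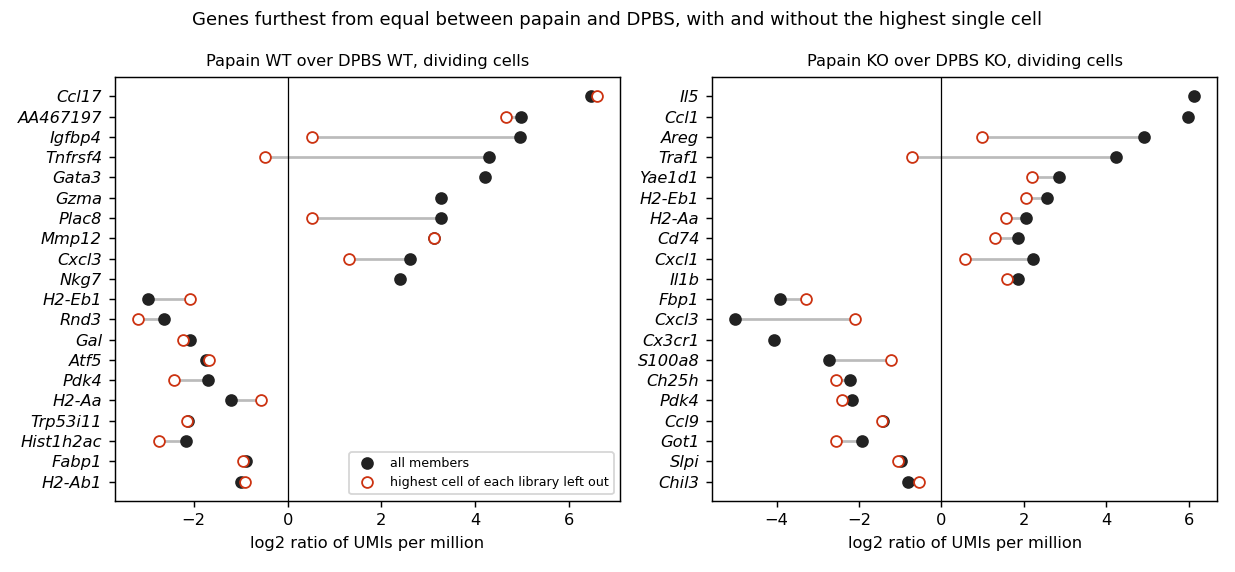
Log2 ratio of CPM in papain to DPBS members (horizontal axis) for the genes furthest from equal, in WT (left) and KO (right). Filled points use all members and open points leave out the highest cell of each library gene by gene. An open point is missing where the UMIs left gave no ratio, as for Il5 in KO. Tnfrsf4 goes from 4.30 to -0.48 in WT and Traf1 from 4.24 to -0.72 in KO, while Pdk4 is at -1.69 and -2.18 with all members and at -2.42 in both without the highest cells.

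The lower genes after papain in WT included Rnd3, a small GTPase, and Gal, which encodes galanin. Rnd3 stood at 58.4 CPM in DPBS WT and 9.34 in Papain WT (-2.65, -3.89 to -1.62), and at 51.4 and 65.4 in the KO pair (0.35, -0.24 to 0.91). Gal stood at 104 and 24.5 CPM in WT (-2.09, -2.81 to -1.44) and at 71.3 and 191 in KO (1.42, 1.04 to 1.804). Both thus lay lowest in Papain WT. In non-dividing macrophages Rnd3 had ratios of -0.34 and 0.73 and Gal of -0.59 and 0.13. Fabp1, a fatty acid binding protein, stood at 390, 349.5, 210 and 361 CPM in the 4 libraries.

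MHC class II genes, which present antigen to CD4 T cells, were lower after papain in WT and higher in KO, with single cells behind much of it. Of 6 compared genes, 2 were past 2-fold lower after papain in WT (list median -0.83) and 4 past 2-fold higher in KO (1.78). H2-Eb1 stood at 119, 21.04, 15.2 and 124 CPM in the 4 libraries, and Cd74, the invariant chain, at 670, 295, 484 and 1070. A single DPBS WT member held 203 of the 273 H2-Eb1 UMIs and a single Papain KO member 272 of the 622 Cd74 UMIs. Without the highest cells the H2-Eb1 ratio was -2.07 in WT and 2.04 in KO, and that of Cd74 in KO was 1.31. H2-Aa in WT went from -1.22 to -0.57, and with the barcodes that the doublet caller Scrublet scored highest left out the list median in WT was 0.12. In non-dividing macrophages the list medians were 0.29 in WT and 0.88 in KO, so the direction in WT was not shared there. B cells of the same libraries hold 29760 to 36180 CPM of this list.

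Inflammatory genes that were past 2-fold higher after papain numbered 3 of 15 in WT and 4 of 14 in KO, and 2 were lower in KO. The 3 in WT rested on few cells. Cxcl3, a neutrophil chemokine, had 67 of its 80 Papain WT UMIs in the cell led by Gata3 and Areg, and its ratio went from 2.61 to 0.16 without the 6 members with another cell type's markers. That of Cxcl10 went from 1.52 to -0.14 without these 6, and that of Il6 from 1.10 to 0.32 without the highest cells. In KO the ratio of Cxcl1, another neutrophil chemokine, went from 2.21 to 0.58 and that of Tnf from 1.42 to 0.81 without the highest cells, while Ccl2 was at 1.51 and 1.23 and the lower Ccl9 at -1.42 and -1.44. Il1b, the cytokine interleukin-1β, stood at 291, 90.0, 445 and 329 CPM, with a ratio of 1.87 (1.55 to 2.18) for KO and 1.60 without the highest cells. Cxcl10, an interferon-induced chemokine, stood at 35.3, 7.01, 102 and 39.6 CPM. Il6 stood at 43.2, 6.43, 92.3 and 6.88 CPM, and 48 of its 79 UMIs in Papain WT were in 1 of 7 cells. DPBS KO held the lowest value of Il1b and Cxcl10. For Il6 the 2 KO libraries lay close, with 11 UMIs in DPBS KO and 4 in Papain KO. Cxcl2, a neutrophil chemokine, stood at 1073, 718, 1115 and 1187 CPM and passed 2-fold in neither genotype.

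KO against WT reuses the same 4 libraries. Under DPBS 21 of 7567 genes were past 2-fold higher in KO members (0.278%) and 43 lower (0.568%), and under papain 55 of 4542 were higher (1.21%) and 44 lower (0.969%). Of these 64 and 99 genes, 4 and 6 were past 2-fold in the same direction in non-dividing macrophages. Of all 7567 and 4542 compared genes, 12 were past 2-fold higher and 12 lower there under DPBS, and 10 and 23 under papain. The cell cycle list medians were -0.25 to -0.03 under DPBS and -0.25 to -0.06 under papain for the 5 lists of replication, nucleotide supply, mitosis, spindle and chromatin, beside -0.02 and 0.04 over all genes, with 1 gene past 2-fold, Ccna2, the S and M phase cyclin, under papain. Ccna2 stood at 162 CPM in Papain WT and 77.4 in Papain KO.

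Under DPBS, Trim65, a ubiquitin ligase, stood at 13.1 CPM in WT and 36.8 in KO members (1.49, 0.84 to 2.17), and Ch25h, which makes 25-hydroxycholesterol, at 18.3 in 19 members and 47.9 in 25 (1.39). Fbp1, a gluconeogenic enzyme, had 0 UMIs in DPBS WT and 134 in 4 DPBS KO members. Cx3cr1, the fractalkine receptor, had 142 of 147 DPBS KO UMIs in 1 member, and its ratio went from 4.62 to 0.44 without the highest cells. S100a9 went from 3.61 to 0.52 without the members with another cell type's markers. Under papain Gal stood at 24.5 CPM in 10 of 33 WT members and 191 in 21 of 22 KO members (2.96, 2.28 to 3.71). The immediate early gene Jun was past 2-fold higher as well, at 371 CPM in 32 of 33 and 824 in 20 of 22 members (1.15), and so were Cd74 (1.15), Egr1 (1.27), H2-Aa (1.64) and H2-Eb1 (3.03), each in 13 to 19 KO members. Ccl2, a monocyte chemokine, stood at 12.8 and 102 CPM (2.98, 2.04 to 4.06). Got1, a cytosolic aminotransferase, was lower in Papain KO, at 77.1 CPM in 24 of 33 WT members and 12 in 3 of 22 KO members (-2.68, -4.05 to -1.56), and it stood at 49.3 and 45.6 under DPBS.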

How the data were processed

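Single cells sorted from lung were measured in 4 libraries, 1 per group, with group names taken from the sample titles. The deposited files hold raw UMI counts per gene and barcode, which the authors made with Cell Ranger on mm10 (per the submitters' processing notes; the file headers give software version 3.1.0). How cells were called and whether doublets had been removed were not given in the sources used here, and no cell annotation was used. Of 31053 gene IDs, 30934 were found in GENCODE M21. Aldoa has 2 rows, of which the one with more UMIs was used, and Clec7a was not analysed here.

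Barcodes with more than 200 genes and under 15% mitochondrial UMIs were kept. UMIs of all cells of a class were summed per library, scaled to CPM and compared as log2 ratios for genes with at least 50 UMIs. Where 1 side had 0 UMIs it was set to 3 UMIs, which gives a lower bound, and ratios with cells left out were not formed where both sides had 3 UMIs or fewer. Intervals are exact Poisson (levels), exact Clopper-Pearson (shares) and exact conditional binomial (ratios) at 95%. Doublets were kept, and as an alternative the barcodes scored highest by Scrublet in scanpy 1.11.5 were removed, at a rate that grew with the number of barcodes. Its own threshold called 1 cell in Papain KO and so did not work there. Calculations used Python 3.11.15, NumPy 2.4.6, SciPy 1.17.1 and pandas 2.3.3, and the ratio script was tested on simulated data.

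Genes named outside the 27 lists are, for dividing against non-dividing cells, the 12 highest and up to 12 lowest past 2-fold by the smallest of 4 ratios. For each pair of libraries they are the 10 highest and 10 lowest by the interval bound nearest to 0, and those past 2-fold for papain in both genotypes. Receptor segment, immunoglobulin, mitochondrial and rule genes were not ranked. The members and the lists were chosen with earlier results of these data known. Alternatives were thinning, other thresholds, doublet removal, TMM scaling (trimmed mean of M values), cell means and other UMI minimums. Those without the Cd3e and Cd79a condition, without the 6 members with another cell type's markers and without the highest cell were added after seeing the data.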

Additional observations from a re-analysis of the deposited data

How the results depend on the processing

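Of 502 values recomputed under an alternative, 461 stayed within their limits, 41 moved, 0 changes past 2-fold turned their direction, and all 32 ratios of shares stayed within theirs. Thinning to 5000 UMIs gave dividing shares of 3.62% (DPBS WT), 2.85% (DPBS KO) and 2.1% (Papain KO), and at least 2 UMIs each of Mki67 and Top2a gave 4.61% (DPBS WT), 3.61% (DPBS KO) and 2.48% (Papain WT). The count of genes lower in dividing cells went from 2 to 8 with TMM, 9 with at least 2 UMIs of both genes, 6 without the condition on Cd3e and Cd79a, and 5 without the 6 members with another cell type's markers. TMM moved the median of the identity list to -0.50, of the sterol list to -0.22 and of the interferon list to 0.17 (Papain KO over DPBS KO) and 0.29 (Papain KO over Papain WT). Means over cells gave -0.55 for nucleotide supply (Papain WT over DPBS WT) and 0.28 for the interferon list (Papain KO over Papain WT). Doublet removal gave 0.12 for MHC class II in Papain WT over DPBS WT, against -0.83 with all members, so that median turned its sign. Without the 6 members the spindle list was at -0.17 (Papain WT over DPBS WT) and nucleotide supply at -0.29 (Papain KO over Papain WT).

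Genes past 2-fold depended on the UMI minimum. With 20 UMIs the higher and lower genes numbered 143 and 347 (papain over DPBS in WT), 175 and 311 (in KO), 105 and 159 (KO over WT under DPBS), and 200 and 205 (under papain). With 1 UMI they numbered 920 and 622, 981 and 636, 537 and 575, and 824 and 802. Leaving out the highest cell of each library gene by gene gave 21 and 223 for papain in WT and 29 and 180 in KO, and 71 lower genes for KO over WT under papain. Without the condition on Cd3e and Cd79a 97 genes were lower for KO over WT under DPBS. No paired analysis was possible because each group is 1 library, and no replicate could be left out. With 22 to 82 members per library, genes with few UMIs could not be compared, differences between groups could not be set against those between mice, and the cause of each move was not tested.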
